A study of Caenorhabditis elegans with 3 samples.

Results

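The genes described here are ham-3 and swsn-2.2, the paralogs targeted by feeding RNAi, and C18E3.1, the gene next to swsn-2.2, for which no role is given here. They are 3 of 46135 genes in the deposited tables, of which 20495 were above 0 in at least 1 library, and were taken by gene name and by Gene ID. Both tables give FPKM (fragments per kilobase of transcript, scaled to library size) per gene and per transcript, and the members hold 5 of 57165 listed transcripts.

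Poly(A)-enriched RNA, sequenced as paired reads of 73 bp, was measured in whole L4 larvae of the Caenorhabditis elegans wild-type strain N2, with 1 library for ham-3(RNAi), 1 for swsn-2.2(RNAi) and 1 for gfp(RNAi). All larvae ate bacteria that carry an RNAi clone on plates for 36 hours from the first larval stage, and the gfp clone, which has no target in N2 worms, served as the control. The temperature is given as 25 °C in the series design and as 35 °C in the growth protocol. The labels do not give the number of animals behind a library, and with 1 library per group no spread between cultures can be given and no test was made. RNAi by feeding leaves the gene itself intact, and the part of each gene that its clone covers is not given in the sources used here.

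SWI/SNF complexes use the energy of ATP to move or evict nucleosomes and so change which DNA is open to transcription factors. HAM-3 (also called SWSN-2.1) and SWSN-2.2 are alternative forms of the same accessory subunit, related to the mammalian BAF60 proteins, and ham-3 was named for the abnormal migration of the HSN neurons, the serotonergic neurons that drive egg laying. In feeding RNAi, double-stranded RNA from the bacteria is cut into small RNAs that direct loss of the matching messenger RNA, so a lower level of the targeted messenger RNA is the usual sign that it worked. The libraries thus allow each targeted gene to be read in the library that carries its name and in the other.

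The ham-3 gene (ZK1128.5) is listed on chromosome III at 10120781 to 10122927 in the tables and at 10120781 to 10122925 on the plus strand in the WBcel235 annotation, with 6 exons and 1 transcript of 1547 bases. The swsn-2.2 gene (C18E3.2) is listed on chromosome I at 4210977 to 4212667, and the annotation has it on the plus strand from 4210979 with 4 exons and a spliced length of 1523 bases. C18E3.1 is listed on chromosome I at 4212742 to 4214261, on the same strand, with 6 exons and 1 listed transcript. The paralogs lie on different chromosomes and have spliced lengths that differ little. The genome build of the tables is not given in the sources used here. Of 45689 genes found in the annotation, 57.4% have the same start and end there, and the listed positions of some other genes cover only part of their annotated span.

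The level of ham-3 was 23.1 FPKM in the library labelled as ham-3(RNAi), 31.5 FPKM in swsn-2.2(RNAi) and 19.3 FPKM in gfp(RNAi). The lowest of the 3 values was thus that of the control, and ham-3 was not lowered in the library that carries its name. The level of ham-3 goes against the label to that extent, and any direction drawn from that library carries the same doubt. The library is called "labelled as ham-3(RNAi)" throughout. The level of swsn-2.2 was 37.8 FPKM in the library labelled as ham-3(RNAi), was listed at 0 in swsn-2.2(RNAi) and was 19.3 FPKM in gfp(RNAi). C18E3.1 was at 12.6 FPKM in the library labelled as ham-3(RNAi), was listed at 0 in swsn-2.2(RNAi) and was at 9.98 FPKM in gfp(RNAi). All 3 genes were therefore higher in the library labelled as ham-3(RNAi) than in the control library, and swsn-2.2 and its neighbour were listed at 0 together. In RNA from whole animals, fewer cells of a type and less RNA per cell cannot be told apart.

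**Figure D1:**
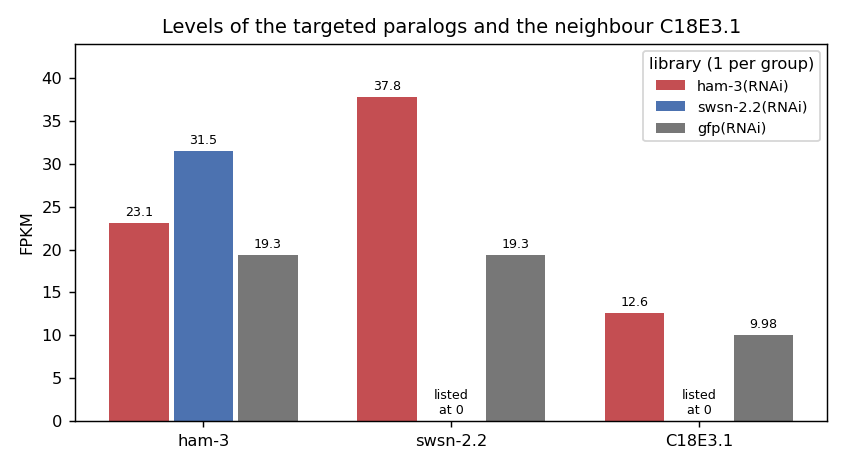
Level in FPKM (bars) of ham-3, swsn-2.2 and C18E3.1 in the 3 libraries, 1 library per group. The bars of ham-3 stand at 23.1, 31.5 and 19.3 FPKM in the library labelled as ham-3(RNAi), swsn-2.2(RNAi) and gfp(RNAi), and swsn-2.2 and C18E3.1 have no bar in swsn-2.2(RNAi), where they are listed at 0.

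These levels were moderate. The 18998, 19042 and 18386 genes above 0 in the library labelled as ham-3(RNAi), swsn-2.2(RNAi) and gfp(RNAi) had median levels of 9.30, 9.36 and 9.65 FPKM. In gfp(RNAi) ham-3 stood at percentile 63.9 of the genes above 0, swsn-2.2 at 63.9 and C18E3.1 at 50.5. The same genes stood in the library labelled as ham-3(RNAi) at percentiles 68.2, 78.8 and 55.4, and in swsn-2.2(RNAi) ham-3 stood at 74.3. The total of mapped fragments, inferred from the steps between low FPKM values, was about 31000000 in each RNAi library and 19700000 in gfp(RNAi). At that depth the levels of ham-3 stand for about 988, 1349 and 527 fragments in the library labelled as ham-3(RNAi), swsn-2.2(RNAi) and gfp(RNAi). Of the markers chosen for muscle, intestine, epidermis, neurons, germline, sperm and adult stage, 18 of 22 were above 0 in all 3 libraries. Of the others, the neuronal gene rab-3 was listed at 0 in all 3, the intestinal gene ges-1 in both RNAi libraries, the cuticle collagen gene dpy-7 in gfp(RNAi) and the neuronal gene unc-31 in the library labelled as ham-3(RNAi).

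The first comparison asks how ham-3 stood in the library that carries its name. Against gfp(RNAi), it was 1.19-fold higher there. The log2 of its FPKM ratio was 0.26, with an approximate 95% counting interval of 0.10 to 0.41 from the inferred fragments. The interval covers counting error in 2 libraries and not the spread between cultures. With 1 FPKM added to each value, the log2 ratio was 0.24, and 2051 of 14683 genes with a mean of at least 1 FPKM lay above it. The median of the genes above 0 in both libraries was 0.03. The ratio of ham-3 was at percentile 87.7 of these 14189 genes, so many genes lay as far from the control. The authors' deposited table gives ham-3 a log2 fold of 0.26 and a p-value of 0.112 in this comparison, and ham-3 is in neither of their deposited lists for it, which hold 1.39% (higher) and 2.94% (lower) of the 18664 genes with a p-value other than 1.

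When its paralog was targeted instead, ham-3 was 1.63-fold higher in swsn-2.2(RNAi) than in gfp(RNAi). The log2 of the FPKM ratio was 0.70, with an approximate 95% counting interval of 0.56 to 0.85, and the log2 ratio of FPKM + 1 was 0.68 against a median of 0.08 over the genes above 0 in both libraries. Of 14270 such genes, 209 lay above ham-3, which stood at percentile 98.5. The authors' deposited table gives a log2 fold of 0.70 with a Cuffdiff p-value of 1.76e-06. Their deposited list of 580 higher genes, which runs to q-values of 0.147, gives ham-3 a q-value of 0.000143. Both values compare 1 library with 1 library, so they leave out the spread between cultures. That list holds 3.11% of the 18624 genes to which the table gives a p-value other than 1, and by fold ham-3 is in place 169 in it, while the list of lower genes holds 1.87%. On the FPKM + 1 scale 2.26% of genes were 2-fold higher and 1.46% were 2-fold lower, and ham-3 was not among them. Both comparisons use the same gfp(RNAi) library, so its level of ham-3 enters both ratios.

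Set directly against each other, ham-3 was at 0.733 times its swsn-2.2(RNAi) level in the library labelled as ham-3(RNAi). The log2 of that FPKM ratio was -0.45, with an approximate 95% counting interval of -0.57 to -0.33. On the FPKM + 1 scale the log2 ratio was -0.43, at percentile 6.96 of 14313 genes above 0 in both libraries, whose median was -0.05. It was not among the 1.79% of genes 2-fold higher or the 1.93% 2-fold lower. The order of ham-3 levels, from the highest, was therefore swsn-2.2(RNAi), the library labelled as ham-3(RNAi) and gfp(RNAi). By the approximate counting intervals, neighbours in that order differed by more than counting error. Those intervals rest on inferred fragment totals, whose accuracy was not tested. Without replicates the differences cannot be set against the spread between cultures.

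The summed level of the adult stage markers had the same order over the libraries as ham-3, but not each marker did. The yolk protein genes vit-2 and vit-6 and the adult cuticle collagen gene col-19 summed to 1928 FPKM in the library labelled as ham-3(RNAi), 2431 FPKM in swsn-2.2(RNAi) and 1723 FPKM in gfp(RNAi), with 0 of 3 markers at 0 in each. Both yolk genes had that order, with vit-2 at 535, 658 and 449 FPKM and vit-6 at 517, 592 and 389 FPKM, while col-19, at 876, 1182 and 884 FPKM, was not higher in the library labelled as ham-3(RNAi) than in gfp(RNAi). The germline markers glp-1, pgl-1 and glh-1, in the same order of libraries, summed to 440, 437 and 428 FPKM. The body wall muscle markers myo-3, unc-54 and unc-15 summed to 1132, 927 and 1100 FPKM. The sperm markers msp-142, spe-11 and msp-3 summed to 974, 933 and 864 FPKM. The epidermal markers dpy-7, dpy-13 and rol-6 summed to 1152, 1006 and 1304 FPKM, the intestinal markers elt-2, ges-1 and asp-1 to 1971, 2148 and 2034 FPKM, and the neuronal markers rab-3, unc-119, snb-1 and unc-31 to 273, 279 and 287 FPKM. Some of these sums count a listed 0 and so do not cover the same genes in each library. The epidermal sum lacks dpy-7 in gfp(RNAi), at 55.6 FPKM in the library labelled as ham-3(RNAi) and 48.5 FPKM in swsn-2.2(RNAi). The intestinal sum lacks ges-1 in both RNAi libraries, at 29.7 FPKM in gfp(RNAi). The neuronal sum lacks unc-31 in the library labelled as ham-3(RNAi). The part that differences in marker levels play in the level of ham-3 was not tested.

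The level of swsn-2.2 in the library labelled as ham-3(RNAi) was 1.96-fold that in gfp(RNAi). The log2 of the FPKM ratio was 0.97, with an approximate 95% counting interval of 0.82 to 1.11 that leaves out any error in dividing fragments among transcripts. The log2 ratio of FPKM + 1 was 0.93. Only 57 of 14189 genes above 0 in both libraries had a larger ratio, which puts swsn-2.2 at percentile 99.6. It stayed under the 2-fold limit, so 0 of 3 members passed 2-fold in either direction in this comparison, where 2.4% of genes were 2-fold higher and 1.76% were 2-fold lower. Those shares rest on genes listed at 0 in 1 of the libraries, without which 352 higher genes became 43 and 258 lower genes became 73. C18E3.1 was 1.26-fold higher in the library labelled as ham-3(RNAi), with a log2 FPKM ratio of 0.33 and an approximate 95% counting interval of 0.07 to 0.60. Its log2 ratio of FPKM + 1 was 0.30, at percentile 92.2 of the same genes.

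**Figure D2:**
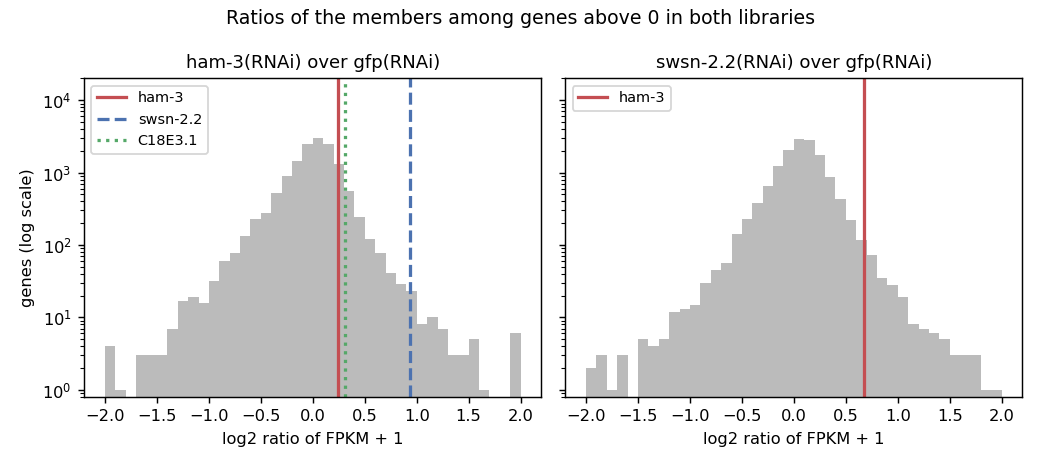
Number of genes (grey bars, log scale) by log2 ratio of FPKM + 1 for the library labelled as ham-3(RNAi) over gfp(RNAi) (left) and swsn-2.2(RNAi) over gfp(RNAi) (right), for genes above 0 in both libraries, with the outermost bars holding all ratios beyond the axis. Lines mark ham-3 at 0.24, C18E3.1 at 0.30 and swsn-2.2 at 0.93 on the left, and ham-3 at 0.68 on the right, where the others have no ratio.

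The authors' deposited table gives swsn-2.2 a log2 fold of 0 and a p-value of 1 in both comparisons, although its FPKM values differ, and C18E3.1 has the same entries. Among genes at 10 FPKM or more in both the library labelled as ham-3(RNAi) and gfp(RNAi), 515 had such an entry in the authors' deposited table and 8292 had a fold. Of the 515, only 2 differed by more than 1.5-fold. They were swsn-2.2 and the cuticle collagen gene col-106, which was named after its values were seen and was lower, at 691 FPKM in the library labelled as ham-3(RNAi) and 1084 FPKM in gfp(RNAi). Of the 8292, 208 (2.51%) differed by more than 1.5-fold, and 12 of them were as high as swsn-2.2 or higher. Genes without a fold were also more often at 0 in swsn-2.2(RNAi), with 22 of 515 (4.27%) against 14 of 8292 (0.169%). These shares describe the tables and were not tested.

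By transcript, swsn-2.2 was the sum of 3 listed models that overlap over most of their span. C18E3.2.1 runs from 4210977 to 4212667, C18E3.2.3 starts at 4210979 and ends at the same base, and C18E3.2.2 ends earlier, at 4212576. The models in the library labelled as ham-3(RNAi) were at 12.7 FPKM for C18E3.2.1, 7.96 FPKM for C18E3.2.2 and 17.2 FPKM for C18E3.2.3. In gfp(RNAi) they were at 9.51 FPKM, listed at 0, and at 9.80 FPKM, in the same order. In swsn-2.2(RNAi) all 3 were listed at 0. Part of the higher gene level in the library labelled as ham-3(RNAi) therefore lay in a model that the control library lists at 0, and which held 21.1% of the gene there. Without C18E3.2.2, a choice made after seeing the data, the gene held 29.8 FPKM in the library labelled as ham-3(RNAi) and 19.3 FPKM in gfp(RNAi), 1.54-fold higher, with a log2 ratio of FPKM + 1 of 0.60. Fragments within the overlap cannot be assigned to 1 model, so the split is the authors' estimate. Among 3909 genes with at least 2 transcripts and at least 10 FPKM in both libraries, 68 (1.74%) had a transcript at 0 in gfp(RNAi) and at 5 FPKM or more in the library labelled as ham-3(RNAi). The reverse was seen in 137 (3.50%).

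**Figure D3:**
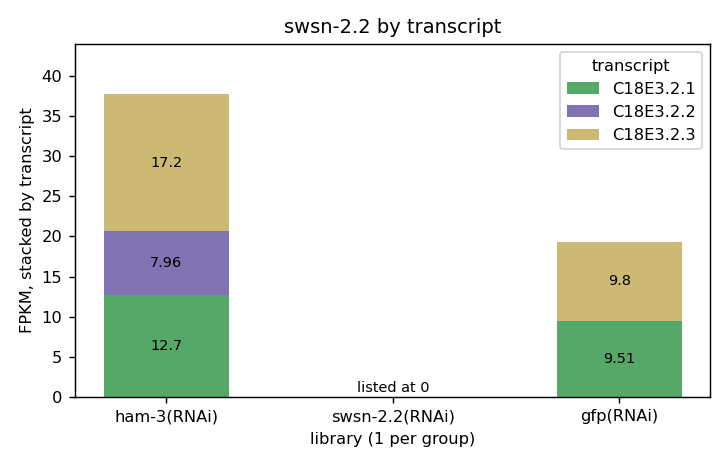
Level of swsn-2.2 in FPKM in the 3 libraries, with the bars stacked by transcript model. The library labelled as ham-3(RNAi) has 3 segments of 12.7, 7.96 and 17.2 FPKM, swsn-2.2(RNAi) has none, and gfp(RNAi) has 9.51 and 9.80 FPKM with C18E3.2.2 listed at 0.

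The level of the paralogs together can be read only where both have a value. Together ham-3 and swsn-2.2 summed to 60.8 FPKM in the library labelled as ham-3(RNAi) and in gfp(RNAi) to 38.6 FPKM. The swsn-2.2 level was 1.64 times that of ham-3 in the library labelled as ham-3(RNAi) and 0.999 times in gfp(RNAi), so the paralogs were level in the control and swsn-2.2 was the higher in the other library. No sum is given for swsn-2.2(RNAi), where swsn-2.2 is listed at 0.

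The 0 of swsn-2.2 in its own RNAi library is not by itself a measure of a knockdown. At 10 FPKM or more in both other libraries, 36 of 8807 genes (0.409%) were listed at 0 in swsn-2.2(RNAi). The same pattern was seen in 43 genes (0.486%) of the library labelled as ham-3(RNAi) and in 104 genes (1.16%) of gfp(RNAi), in which no worm gene was targeted. Of the 36 genes, 22 had a log2 fold of 0 and a p-value of 1 in both of the authors' deposited tables, as swsn-2.2 did. Of the same 36, 30 had 2 or more listed transcripts, beside 3909 of all 8807 genes. C18E3.1 has 1 listed transcript and was just under 10 FPKM in the control. It joins at a minimum of 5 FPKM, where 45 of 10681 genes (0.421%) were listed at 0. Both genes at this locus share the pattern with others across the genome, and no fold is given for either in swsn-2.2(RNAi).

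The zeros of swsn-2.2 and C18E3.1 lie side by side. The genes are separated by 74 bases as deposited and by 64 bases in the annotation. Another listed gene, C18E3.10, spans 4212661 to 4212785, overlaps swsn-2.2 by 7 bases and C18E3.1 by 44 bases, and was listed at 0 in all 3 libraries. It is annotated on the opposite strand, and the labels do not say whether the libraries kept strand. Of the 36 genes listed at 0 in swsn-2.2(RNAi), 14 had an adjacent gene, among genes above 0 in some library, with a 0 in the same library and a level above 0 in both others. The count was 14 of 43 for the library labelled as ham-3(RNAi) and 33 of 104 for gfp(RNAi). Adjacent zeros were thus listed in each library, and the share of all genes beside such a 0 is not given here. Through C18E3.10, swsn-2.2 and C18E3.1 fall in 1 run of overlapping listed genes. The whole run was at 0 in swsn-2.2(RNAi) for 36 of the 36 genes. It was so for 43 of 43 in the library labelled as ham-3(RNAi) and 102 of 104 in gfp(RNAi). A gene that overlaps no other counts as its own run. What placed swsn-2.2 and C18E3.1 at 0 was not tested.

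Around that pair, levels were close to the control. The other 9 of the 10 nearest listed genes were all above 0 in swsn-2.2(RNAi), with log2 ratios of FPKM + 1 to gfp(RNAi) between -0.34 and 0.17. The next gene upstream, hop-1, which encodes a presenilin of the Notch pathway, was at 13.9, 14.9 and 15.1 FPKM in the library labelled as ham-3(RNAi), swsn-2.2(RNAi) and gfp(RNAi). The next gene downstream of C18E3.1, C18E3.9, had log2 ratios of FPKM + 1 to gfp(RNAi) of -0.05 in the library labelled as ham-3(RNAi) and 0.05 in swsn-2.2(RNAi). Ratios of the 9 genes in the library labelled as ham-3(RNAi) to gfp(RNAi) lay between -0.15 and 0.22, with a median of -0.01, all below those of swsn-2.2 and C18E3.1.

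Around ham-3, the 10 neighbours taken in the same way include 9 with a ratio in swsn-2.2(RNAi) and 8 in the library labelled as ham-3(RNAi). Their log2 ratios of FPKM + 1 in swsn-2.2(RNAi) over gfp(RNAi) ran from -0.79 to 0.32 with a median of 0.16, and in the library labelled as ham-3(RNAi) from -0.23 to 0.14 with a median of -0.05. The ratio of ham-3 was above all of them in both. The next gene upstream, ZK1128.4, was at 25.2, 33.3 and 27.9 FPKM in the library labelled as ham-3(RNAi), swsn-2.2(RNAi) and gfp(RNAi). The next gene downstream, ttll-4, a tubulin tyrosine ligase-like gene, read 26.1, 33.9 and 30.7 FPKM across those libraries. Both of these neighbours were lower in the library labelled as ham-3(RNAi) than in the control, while ham-3 was higher in the former. Further upstream, ZK1128.3, mett-10 and ZK1128.1 were also higher in the library labelled as ham-3(RNAi), with log2 ratios of 0.14, 0.12 and 0.14. The gene ZK1128.9 was at 8.04 FPKM in the library labelled as ham-3(RNAi), with a listed 0 in the remaining pair.

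**Figure D4:**
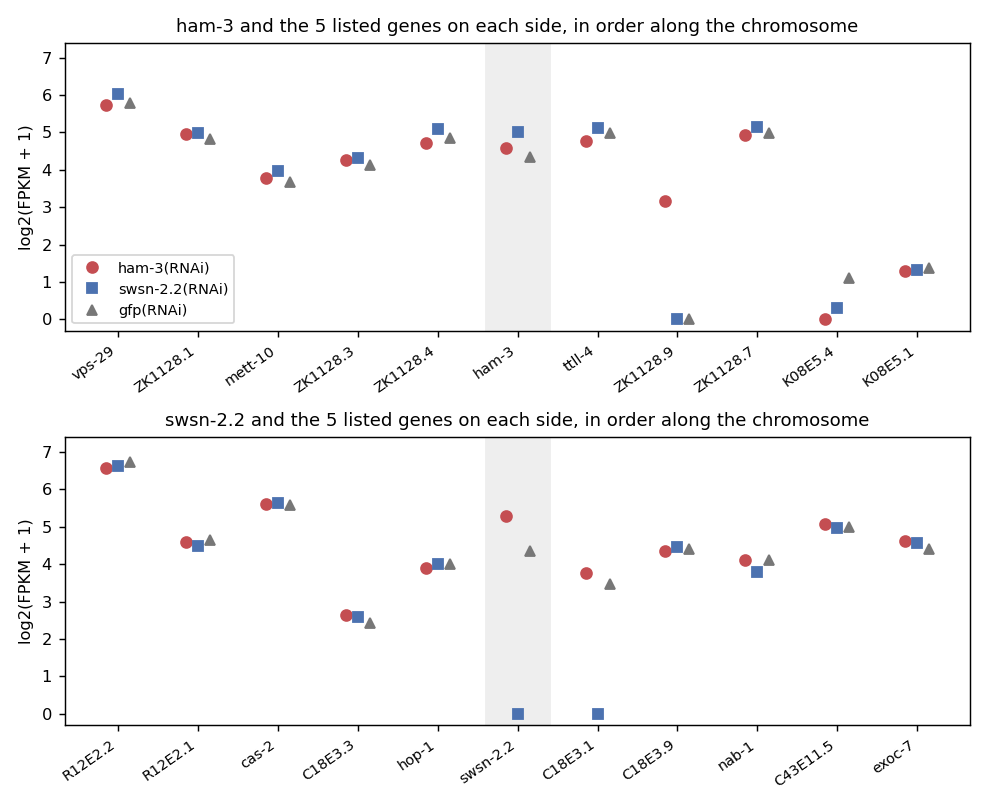
Level as log2(FPKM + 1) of ham-3 (top) and swsn-2.2 (bottom), shaded, and of 5 genes on each side, with 1 point per library. Genes are in their order along the chromosome, taken among those above 0 in at least 1 library. In the bottom panel the swsn-2.2(RNAi) points of swsn-2.2 and C18E3.1 lie at 0 while the other 9 genes keep their 3 points together, and in the top panel the swsn-2.2(RNAi) point of ham-3, 31.5 FPKM, is the highest of its 3.

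The complex to which both paralogs belong was read through 12 other subunit genes, chosen with earlier results of these data known, and all 12 were matched. In gfp(RNAi) ham-3 and swsn-2.2 were at places 10 and 11 from the top of 14 subunits, whose median was 23.3 FPKM. By place among the 13 subunits above 0 in the library labelled as ham-3(RNAi), swsn-2.2 was at 4 and ham-3 at 9, with a median of 32.4 FPKM. For swsn-2.2(RNAi), ham-3 was at place 7 of 12 subunits above 0, with a median of 31.8 FPKM. The core subunit gene snfc-5 (swsn-5) was the highest in each, at 43.4, 46.2 and 41.3 FPKM in the library labelled as ham-3(RNAi), swsn-2.2(RNAi) and gfp(RNAi).

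Of the 12, 11 were above 0 in all 3 libraries. In the library labelled as ham-3(RNAi) 9 of 11 had a log2 ratio of FPKM + 1 above 0, with a median of 0.15 beside 0.03 and 55.9% of genes above 0 over 14111 genes. In swsn-2.2(RNAi) 10 of 11 lay above 0, with a median of 0.18 beside 0.08 and 65.8% of 14176 genes. Of the 11 subunits, 0 were at least 1.5-fold from the control in either library. Over all genes above 0 in all 3 libraries, 4.44% were in the library labelled as ham-3(RNAi) and 3.7% in swsn-2.2(RNAi), so a count of 0 is near the background. The largest ratios were those of the ATPase gene swsn-4, 0.44 in the library labelled as ham-3(RNAi) and 0.48 in swsn-2.2(RNAi). Its levels were 40.3, 41.6 and 29.6 FPKM in the library labelled as ham-3(RNAi), swsn-2.2(RNAi) and gfp(RNAi). It is the only one of the 12 in the authors' deposited lists, as higher in each, with q-values of 0.0227 in the library labelled as ham-3(RNAi) and 0.00839 under swsn-2.2(RNAi), where their lists of higher genes hold 1.39% and 3.11% of genes with a p-value other than 1. These q-values also compare 1 library with 1 library and leave out the spread between cultures. In swsn-2.2(RNAi) the ratio of ham-3, 0.68, lay above that of each of the 11 subunits. In the library labelled as ham-3(RNAi) its ratio, 0.24, lay below those of swsn-4, swsn-7 and swsn-1 (0.44, 0.27 and 0.26).

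Of the signature subunits, the polybromo gene pbrm-1, which marks the PBAF form of the complex, was listed at 0 in both RNAi libraries and was at 21.0 FPKM in gfp(RNAi), again without a fold in the authors' deposited tables. The PBAF gene swsn-7 was at 30.7, 26.7 and 25.3 FPKM and swsn-9, also of PBAF, at 36.8, 37.0 and 37.2 FPKM in the library labelled as ham-3(RNAi), swsn-2.2(RNAi) and gfp(RNAi). The ARID subunit gene let-526 of the BAF form was at 32.7, 32.1 and 27.7 FPKM in that order. The core genes swsn-1 (18.6, 17.8 and 15.3 FPKM) and swsn-3 (22.3, 23.6 and 21.2 FPKM) and the actin-related gene swsn-6 (32.4, 36.2 and 31.9 FPKM) had log2 ratios of at most 0.26 in size. The accessory genes dpff-1 (40.2, 41.2 and 35.9 FPKM), phf-10 (11.7, 11.8 and 11.8 FPKM) and bcl-7 (18.1, 21.2 and 16.2 FPKM) are given in the same order, and bcl-7 had the largest ratio of these, 0.37 in swsn-2.2(RNAi).

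**Figure D5:**
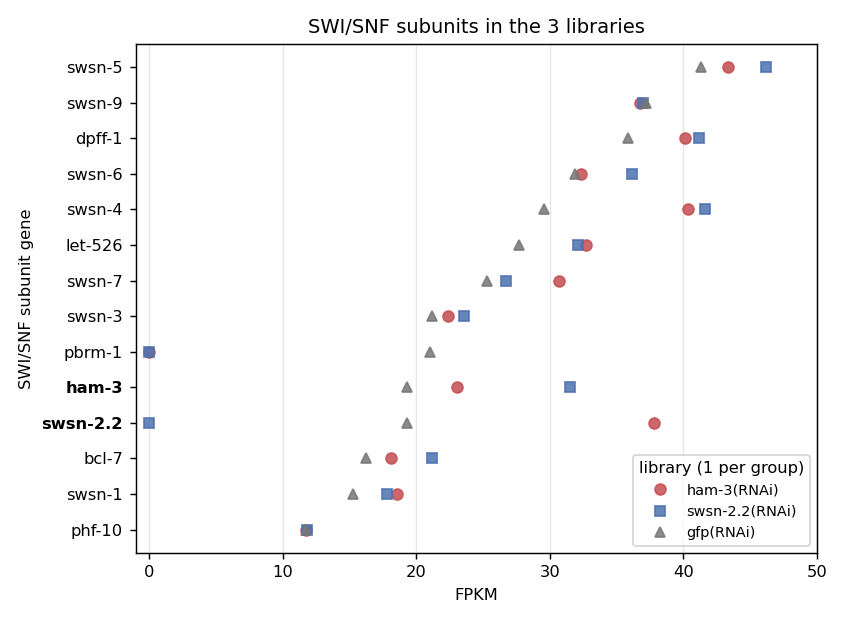
Level in FPKM of 14 SWI/SNF subunit genes, with 1 point per library, ordered by the gfp(RNAi) level and with the targeted genes in bold. The points of most subunits lie close together, while ham-3 reaches 31.5 FPKM in swsn-2.2(RNAi), swsn-2.2 reaches 37.8 FPKM in the library labelled as ham-3(RNAi), and points at 0 are those of swsn-2.2 and pbrm-1.

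A list of 22 genes of RNA interference was read in the same way. Most of them act in feeding RNAi, while eri-1, rrf-3 and ergo-1 belong to an endogenous small RNA pathway that competes with it. Of the 22, 20 had a mean of at least 1 FPKM, and rde-2 and rde-3, which act in small RNA amplification, were listed at 0 in all 3 libraries. Of the 20, 13 in the library labelled as ham-3(RNAi) lay above 0, with a median log2 ratio of 0.10 beside 0.03 over 14111 genes above 0 in all 3 libraries, of which 55.9% lay above 0. In swsn-2.2(RNAi) 15 did, with a median of 0.11 beside 0.08 over 14176 genes, of which 65.8% lay above 0. At 1.5-fold 0 of 20 passed in either direction in either library, against the 4.44% and 3.7% of all genes given above. The furthest in the library labelled as ham-3(RNAi) were drh-1, a Dicer-related helicase gene (14.6 FPKM there and 11.6 FPKM in gfp(RNAi)), and mut-16, which scaffolds the sites of small RNA amplification (26.8 and 22.4 FPKM). In swsn-2.2(RNAi) they were sid-2, the gut receptor for double-stranded RNA (32.6 FPKM there and 26.8 FPKM in gfp(RNAi)), and rde-1, the primary Argonaute gene (24.8 and 21.6 FPKM). Between the RNAi libraries the furthest were sid-2, with 24.9 FPKM in the library labelled as ham-3(RNAi) and 32.6 FPKM in swsn-2.2(RNAi), and rde-8, an endonuclease gene, with 18.0 and 22.3 FPKM.

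The genes most like ham-3 were taken by distance in both log2 ratios to gfp(RNAi), among 10940 genes above 0 in all 3 libraries with a mean of at least 5 FPKM. The nearest 5 were nspb-1, F35E12.9, C10A4.4, Y42A5A.3 and ztf-9, at distances of 0.02 to 0.05. The nearest, nspb-1, a nematode-specific peptide gene, was at 31.9, 44.3 and 27.2 FPKM in the library labelled as ham-3(RNAi), swsn-2.2(RNAi) and gfp(RNAi), and the zinc finger gene ztf-9 at 14.4, 19.4 and 12.2 FPKM. Within 0.1 of ham-3 lay 29 genes, and 62 genes were at or above it in both ratios. The likeness rests on 3 libraries.

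For swsn-2.2, the genes compared were the 45 at 0 in swsn-2.2(RNAi) and at 5 FPKM or more in both others. Of these, 26 were higher in the library labelled as ham-3(RNAi) than in gfp(RNAi). Over all 14683 genes kept in that comparison 56.1% were higher, so this count is near the background. Among the 45, swsn-2.2 had the highest ratio, with C18E3.1 in place 6. The nearest to swsn-2.2 was Y67A10A.9 (8.95 FPKM in the library labelled as ham-3(RNAi) and 6.40 FPKM in gfp(RNAi)), with a log2 ratio of 0.43 against 0.93. C16A3.11, Y37E3.22, F56D1.9 and C18E3.1 came next, with log2 ratios of 0.33, 0.32, 0.31 and 0.30. Each of these genes had 0 in swsn-2.2(RNAi), so the ratio to gfp(RNAi) in the other RNAi library is the whole of the likeness.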

How the data were processed

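The authors deposited FPKM values per gene and per transcript, made with Cufflinks, and a log2 fold and p-value per comparison, made with Cuffdiff, per the submitters' processing notes. The aligner, genome build, strand use and program versions are not stated in the labels. Q-values come with the authors' lists alone. The authors' p-values and q-values compare 1 library with 1 library, so they leave out the spread between cultures. An exact 0 can be a failed estimate, so a gene at 0 gets no fold. The gfp(RNAi) column was the same in both tables, which puts the 3 libraries on 1 scale, and the number of unmapped columns was 0.

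Ratios are log2 of FPKM + 1 between libraries, over genes with a mean of at least 1 FPKM in the pair. With 1 library per group no p-value was computed. Fragment totals were inferred from genes with 1 transcript, at least 500 bases and at most 0.3 FPKM, with a length offset of 165 bases. Of 1854, 1847 and 1591 genes in the library labelled as ham-3(RNAi), swsn-2.2(RNAi) and gfp(RNAi), 60.6%, 59.8% and 61.2% came within 0.1 of a whole fragment, where an even spread gives 20%. The totals are therefore approximate. Intervals are exact conditional binomial (Clopper-Pearson, scipy 1.17.1) at 95%. Reads are not independent molecules, so the intervals cover counting error only.

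Named genes were the 3 members, the listed SWI/SNF subunits and the 5 genes on each side among those above 0 in at least 1 library. Others were the 5 genes nearest to ham-3 and to swsn-2.2 in ratio, and the 2 genes of the RNA interference list with the largest ratio per comparison. Members and lists were chosen with earlier results of these data known. Fold calls and the inference of fragment totals were tested on simulated data. The simulated low values fell closer to whole fragments than those of the libraries, so the accuracy of the totals given here was not tested. Alternatives were other pseudocounts, filters and scalings, the transcript table, and swsn-2.2 without 1 transcript, the last added after seeing the data.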

Additional observations from a re-analysis of the deposited data

Results flagged for a closer look

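The level of swsn-2.2 was 37.8 FPKM in the library labelled as ham-3(RNAi), above gfp(RNAi), while swsn-2.2(RNAi) lists it at 0. For C18E3.1 the level in the library labelled as ham-3(RNAi) was 12.6 FPKM, also above gfp(RNAi), beside a listed 0. Both were picked out because the listed values differ between the RNAi libraries, a rule that counts the listed 0 as a level. A listed 0 can be a failed estimate, so no level below the control is read from it, and with 1 library per group the difference between the RNAi libraries was not tested.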

How the results depend on the processing

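With 1 library per group no library could be left out, and no paired analysis was possible because each group has 1 library. The 5 member ratios moved by less than counting error in 25 of 26 alternatives. The exception was swsn-2.2 without C18E3.2.2, chosen after seeing the data, at 0.60 in place of 0.93. All 5 member ratios kept their direction, but a pseudocount cannot reverse a ratio and the summed transcripts repeat the gene values. Only the scalings and the omitted transcript could have changed a direction. Ranks moved by little. For ham-3 in the library labelled as ham-3(RNAi) the percentile, 86.0 over all genes kept, was 84.4 and 89.2 at pseudocounts of 0.1 and 5 FPKM, 88.1 at a mean of at least 5 FPKM and 87.7 without genes listed at 0. For ham-3 in swsn-2.2(RNAi) it was 96.7, and 95.6, 97.5, 97.4 and 98.5 under the same settings. For swsn-2.2 in the library labelled as ham-3(RNAi) it was 97.5, and 97.2, 98.1, 98.0 and 99.6, with 97.8 when no filter was used. For C18E3.1 there it was 90.4, and 89.4, 91.3, 92.3 and 92.2.

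The counts of 2-fold genes depend on genes listed at 0, whose omission leaves fewer genes to count. In the library labelled as ham-3(RNAi) against gfp(RNAi), 352 higher genes became 43 without them and 219 at a mean of at least 5 FPKM, and 258 lower genes became 73 and 131, or 155 at a pseudocount of 5 FPKM. In swsn-2.2(RNAi) against gfp(RNAi), 332 higher genes became 56 and 201, and 215 lower genes became 48 and 112, or 137 at that pseudocount. In the library labelled as ham-3(RNAi) against swsn-2.2(RNAi), 264 higher genes became 40 and 152, or 174, and 284 lower genes became 83 and 166, or 175. Centring on the median gene took the SWI/SNF median in swsn-2.2(RNAi) to 0.0878 in place of 0.17. It took the RNA interference median there to 0.0348 in place of 0.11. Between the RNAi libraries, both list medians changed sign with centring. The SWI/SNF median went to 0.0187 in place of -0.04, and the RNA interference median to 0.0328 in place of -0.02. The genes at 0 in a single library stayed within 1.5 times at minimums of 5 and 20 FPKM. Depth cannot resolve whether a 0 is a failed estimate.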
